A study of Mus musculus with 6 samples.

Results

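Basement membrane genes were followed in mouse embryonic stem (ES) cells as a set of 10 members: the collagen IV genes Col4a1 and Col4a2, the laminin chain genes Lama1, Lama5, Lamb1 and Lamc1, the linker genes Nid1, Hspg2 and Agrn, and Sparc. They were chosen by gene symbol, and all 10 were found among the 23420 gene symbols of the count table. All 10 passed the filter on low counts, which left 14340 genes to test. The study compared ES cells kept under self-renewing conditions after stable lentiviral transduction with wild-type KBP (libraries WT 1, WT 2 and WT 3) or with KBP(KK/RR), a mutant that the labels call stable (libraries KK/RR 4, KK/RR 5 and KK/RR 6). KBP is the Kif1-binding protein, a partner of kinesin motors. All cells carried a virus, so every comparison below sets one KBP virus against another. Whether each line was a clone or a pool, and whether replicates came from separate cultures, is not given in the sources used here. P-values therefore measure the spread between these libraries, which may be technical.

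A basement membrane is a thin sheet of matrix that lies under epithelia and around muscle, fat and vessels. Laminins, each built of an alpha, a beta and a gamma chain, form a network at the cell surface, and collagen IV forms another that is held by covalent crosslinks. Nidogen and perlecan (the product of Hspg2) connect the networks, and agrin ties laminin to receptors of the cell. In the early mouse embryo such a sheet separates the epiblast, to which ES cells are related, from the primitive endoderm, and the parietal endoderm deposits a thick one.

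The members differ in size and place. On GRCm38 (GENCODE M21), Col4a1 (chromosome 8, 11198423 to 11312826, minus strand) and Col4a2 (chromosome 8, 11312805 to 11449287, plus strand) lie head to head, and the other 8 members stand on 7 other chromosomes. The start regions of the collagen pair are printed because these neighbours are transcribed away from each other and both were called lower in the mutant cells. Both calls moved with the settings of the test, as given below, and a link to the start regions was not tested. Each printed region is the RefSeq window on GRCm38.p6 from 250 bases before to 50 bases after the annotated start, written 5′ to 3′ on the gene's own strand. Capitals mark the 78 bases that lie in both windows, and the capitals of one are the reverse complement of those of the other.
Col4a1, chr8:11312777-11313076, minus strand: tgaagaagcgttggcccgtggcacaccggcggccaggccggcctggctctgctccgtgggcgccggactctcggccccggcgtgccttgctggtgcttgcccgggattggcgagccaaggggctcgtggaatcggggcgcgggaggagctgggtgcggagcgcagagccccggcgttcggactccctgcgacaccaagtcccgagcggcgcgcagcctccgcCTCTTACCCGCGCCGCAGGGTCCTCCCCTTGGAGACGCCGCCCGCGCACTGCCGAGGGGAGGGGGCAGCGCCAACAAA
Col4a2, chr8:11312555-11312854, plus strand: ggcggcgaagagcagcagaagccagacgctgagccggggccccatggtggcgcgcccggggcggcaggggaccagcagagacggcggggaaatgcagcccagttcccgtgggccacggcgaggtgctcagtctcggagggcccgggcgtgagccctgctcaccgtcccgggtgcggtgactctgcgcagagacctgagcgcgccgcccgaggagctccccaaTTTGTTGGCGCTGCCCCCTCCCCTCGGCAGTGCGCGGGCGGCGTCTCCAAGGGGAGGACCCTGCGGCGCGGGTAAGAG
Of 32851 such windows in the RefSeq table, 10.8% overlap a window of another gene on the opposite strand. The table holds 9 windows for 8 of the 10 members, 2 of them for Agrn. The GC box GGGCGG, searched on both strands, stood in 8 of these 9 windows and in 35.7% of all windows. It was not in that of Sparc, and 1 of the 2 Agrn windows held 12. The only GC box of the Col4a1 window lies in the bases shared with Col4a2 and is counted in both, so the 9 windows are not all separate. The letters CCAAT, on either strand, stood in 4 of the 9, among them both collagen windows, and in 37.4% of all. The letters TATAAA (13.6% of all windows) and AGATAA (11.2%), on either strand, stood in 0 of the 9. The GC content of the 9 windows ran from 55.3% for Sparc to 83.3% for Agrn, against a median of 52.7% over all windows.

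Library totals ran from 24131743 to 32160411 counts, and libraries of the same group were further apart than counting noise allows (chi-square per degree of freedom 2.71 to 7.23). The members together took 0.324%, 0.366% and 0.388% of all counts in WT 1, 2 and 3, and 0.308%, 0.276% and 0.251% in KK/RR 4, 5 and 6. The KBP gene (2510003E04Rik) measured 47.0 to 49.6 counts per 1000000 counts of the library (CPM) in the WT and 53.9 to 59.6 CPM in the KK/RR libraries. Both groups carry a KBP virus, and whether viral transcripts were counted under this gene is not given in the sources used here, so it does not check the labels. The ES cell markers Pou5f1 (1370 to 1512 CPM) and Nanog (302 to 345 CPM) were abundant in all 6 libraries.

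All 10 members had a negative log2 fold change, written throughout as KBP(KK/RR) minus wild-type KBP. Of these, 4 fell in edgeR's quasi-likelihood test at an adjusted p under 0.05: Agrn, Col4a1, Nid1 and Col4a2. The background was 2.07% of all tested genes called lower, 1.05% called higher and 3.12% called in either direction (297 lower and 151 higher; 205 and 235 with upper-quartile scaling). The number of members called higher was 0 by edgeR and 0 by DESeq2. An unadjusted p under 0.05 was reached by all 10, each on the lower side, against 18.6% of all genes. The members were chosen with earlier results of these data known, so the contrasts with all genes in this paragraph do not test the set. Their values also moved together over the libraries, as given below, so the 10 p-values are not separate observations. The groups did not overlap for 8 members, all lower in the mutant, against 22.4% of all genes in either direction and 10.5% on the lower side. The median log2 fold change was -0.30 over the members and -0.00 over all tested genes, of which 50.8% were negative. Among tested genes with transcripts over 6 kb, a class that holds 8 of the members, 74.8% were negative and 5.34% were called lower. The steepest differences were those of Hspg2 and Lama1, which also had the largest standard errors (SE) and were not called. The number called moved with single libraries: 2 members were called without WT 2, 1 without WT 3 and 1 without KK/RR 5.

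**Figure D1:**
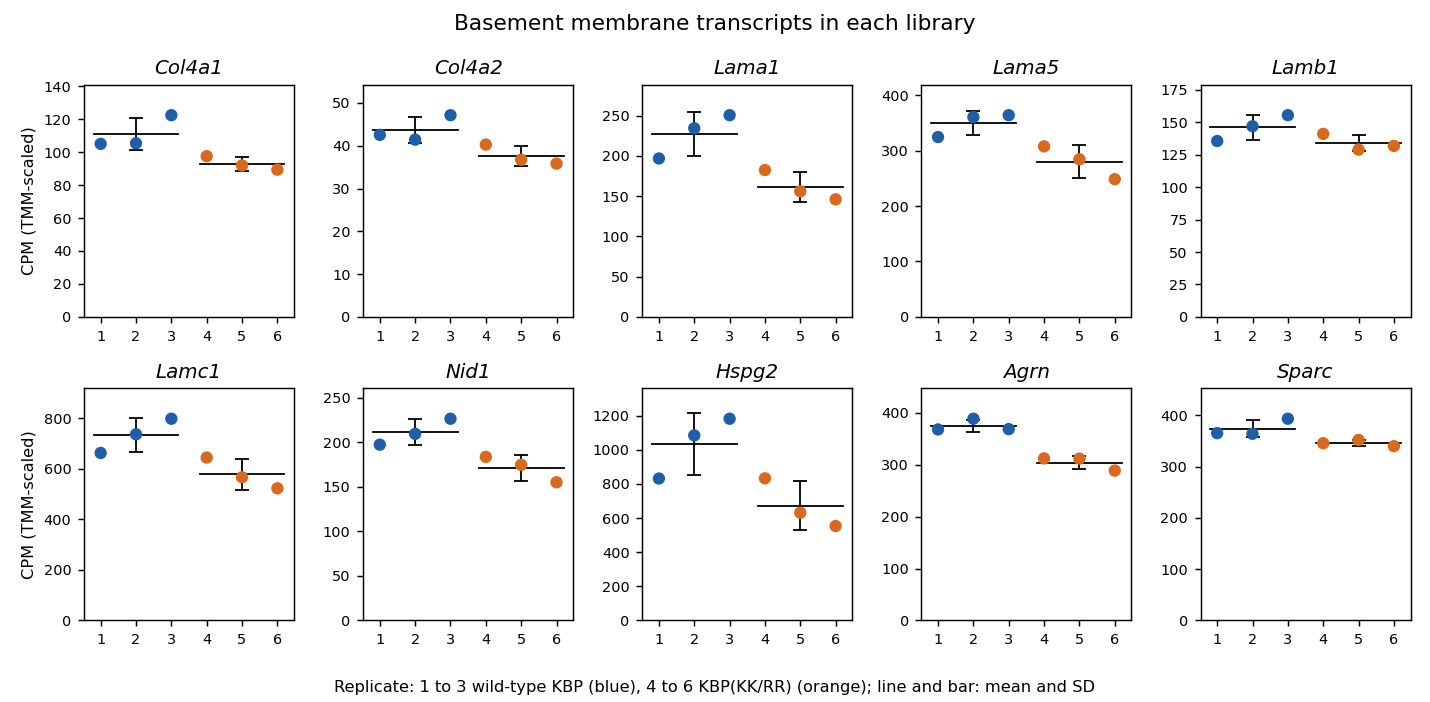
Expression of the 10 members in each library, in CPM scaled with TMM factors, on axes that start at 0; points are libraries (blue, wild-type KBP 1 to 3; orange, KBP(KK/RR) 4 to 6), lines are group means and bars are SD (n = 3). The groups do not overlap for 8 members; those of Hspg2 and Lamb1 do.

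Collagen IV is the covalently linked scaffold, and its commonest trimers hold the Col4a1 chain in excess of the Col4a2 chain. Col4a1 measured 105, 105 and 122 CPM in WT 1, 2 and 3 and 97.5, 91.9 and 89.3 CPM in KK/RR 4, 5 and 6. The groups did not overlap, and WT 3 stood above the other two. From 111 ± 9.94 to 92.9 ± 4.19 CPM (SD, n = 3 each), Col4a1 fell by 0.25 on the log2 scale (SE 0.06, edgeR adjusted p = 0.0170), to 0.839 of the wild-type level. Col4a2 measured 42.5, 41.4 and 47.1 CPM against 40.3, 36.7 and 35.8 CPM, again without overlap and again highest in WT 3. Col4a2 fell by 0.21 (SE 0.06, edgeR adjusted p = 0.0473). The ratio of the chains differed little between libraries. Per kb of the longest transcript, the Col4a1 level was 2.41, 2.48 and 2.53 times that of Col4a2 in WT 1, 2 and 3 and 2.36, 2.44 and 2.43 times in KK/RR 4, 5 and 6, ranges that overlap. The call of Col4a1 did not hold without WT 3 (edgeR adjusted p = 0.0613) or KK/RR 5 (0.0866) or 6 (0.114), with adjusted p of 8.11e-06 to 0.114 over its 16 alternatives. That of Col4a2 held in 6 of 16 (0.00530 to 0.437).

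Laminin chains were lower by different amounts, and none passed the test. Lama1, the alpha chain typical of the earliest embryonic basement membranes, measured 197, 234 and 250.4 CPM in the WT and 182, 156 and 146 CPM in the KK/RR libraries. The groups did not overlap, but WT 1 stood nearer to KK/RR 4 than to the other wild-type libraries. This gave a log2 fold change of -0.49 with an SE of 0.13 (edgeR adjusted p = 0.169). Lama5, an alpha chain widespread in epithelia, measured 324, 360.4 and 364 CPM against 308, 284 and 248 CPM, with a log2 fold change of -0.32 (SE 0.09, edgeR adjusted p = 0.122). Here too WT 1 was the lowest of its group and KK/RR 4 the highest of the other.

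Lamc1 encodes the gamma chain that most laminins share, and per kb it was the most abundant of the 4 laminin transcripts. It measured 662, 736 and 797 CPM in the WT and 644, 566 and 522 CPM in the KK/RR libraries (log2 fold change -0.34, SE 0.11, edgeR adjusted p = 0.199). Lamb1, the beta chain that pairs with either alpha chain, measured 136, 147 and 155 CPM against 141, 129 and 132 CPM. Its groups overlapped, and its log2 fold change of -0.12 (SE 0.05, edgeR adjusted p = 0.174) was the smallest of the laminin chains. DESeq2 called Lama1 (adjusted p = 0.0232) and Lama5 (4.57e-04), where its background of lower calls was 1.58%. Over 16 alternatives the adjusted p ran from 0.0184 to 0.416 for Lama1 and from 2.76e-10 to 0.338 for Lama5.

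Ratios within a library do not depend on its scaling, but they keep any dependence on transcript length that differs between libraries (given below). The longest transcripts are 5.784 kb for Lamb1, 7.622 kb for Lamc1, 9.526 kb for Lama1 and 11.388 kb for Lama5. The part of length in these ratios was not tested. The level of Lamb1 per kb was 0.270, 0.263 and 0.257 of that of Lamc1 in WT 1, 2 and 3 and 0.289, 0.300 and 0.333 in KK/RR 4, 5 and 6, so every mutant library lay above every wild-type one. Lama1 over Lamc1 went the other way, with 0.238, 0.255 and 0.251 against 0.227, 0.220 and 0.224. Lama5 over Lamc1 overlapped (0.328, 0.328 and 0.305 against 0.320, 0.336 and 0.318). For comparison, the groups did not overlap for 22.4% of all tested genes taken singly. These ratios are given as values with no test, and they rest on the longest transcript of each gene. Another length multiplies a ratio by 1 factor in all 6 libraries, so the order of the libraries stays, but its size moves. With the median length of a gene's annotated transcripts the wild-type mean went from 0.263 to 0.0745 for Lamb1 over Lamc1, from 0.248 to 0.1145 for Lama1 over Lamc1 and from 0.320 to 0.730 for Lama5 over Lamc1. Col4a1 over Col4a2 went from 2.47 to 3.61.

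Of the linkers, agrin gave the difference with the smallest adjusted p. Agrn, a heparan sulfate proteoglycan known for clustering acetylcholine receptors at the nerve-muscle junction, measured 368, 389 and 369 CPM in the WT and 312, 312 and 289 CPM in the KK/RR libraries. Every wild-type library stood above every mutant library. From 375 ± 11.7 to 304 ± 13.4 CPM, Agrn fell by 0.30 on the log2 scale (SE 0.04, edgeR adjusted p = 1.96e-04), and it was called in all 16 alternatives (adjusted p at most 0.00707).

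Nid1, the nidogen that binds both laminin and collagen IV, measured 197, 209 and 226 CPM against 183.5, 175 and 155 CPM. It fell by 0.30 (SE 0.07, edgeR adjusted p = 0.0384) with no overlap of the groups. Nid1 was no longer called without WT 2 (0.126) or 3 (0.0727) or KK/RR 5 (0.118), and its adjusted p ran from 1.74e-09 to 0.126 over 16 alternatives.

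Hspg2, the gene for perlecan, had the most counts of the members and the largest spread. It measured 831 CPM in WT 1, 1084 CPM in WT 2 and 1181.5 CPM in WT 3. KK/RR 4, 5 and 6 measured 832, 631 and 553 CPM. WT 1 and KK/RR 4 were level, and the groups overlapped there. The log2 fold change of -0.62 was the largest of the members and had the largest SE (0.22, edgeR adjusted p = 0.265).

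Sparc, a secreted glycoprotein that binds collagen IV, had the smallest difference. It measured 365, 364 and 393 CPM in the WT and 346, 352 and 339.8 CPM in the KK/RR libraries, without overlap. This gave a log2 fold change of -0.11 with an SE of 0.04 (edgeR adjusted p = 0.124). Sparc has the shortest transcript of the 10 (2.30 kb), and per kb of the longest transcript it was the most abundant member, at 163 ± 7.21 CPM per kb in the WT and 150.4 ± 2.67 in KBP(KK/RR) cells.

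Levels were compared between genes only per length, and their order depends on the length taken. Per kb of the longest transcript, in wild-type KBP cells the order after Sparc was Lamc1 (96.0 ± 8.87 CPM per kb), Hspg2 (72.8 ± 12.7), Agrn (43.6 ± 1.36), Nid1 (34.6 ± 2.40), Lama5 (30.7 ± 1.92), Lamb1 (25.2 ± 1.73), Lama1 (23.8 ± 2.89), Col4a1 (16.8 ± 1.502) and Col4a2 (6.78 ± 0.470). Lamb1 and Lama1 stood within 1 SD of each other, and Nid1 and Lama5 within the sum of their SD. The order was the same in KBP(KK/RR) cells, where Lama1 (16.9 ± 1.97) stood further below Lamb1 (23.2 ± 1.10). Per kb of the median transcript length the wild-type order was another: Lamc1 (792 ± 73.2), Lama5 (577 ± 36.1), Sparc (295 ± 13.1), Col4a1 (171 ± 15.4), Lama1 (90.8 ± 11.02), Hspg2 (72.8 ± 12.7), Lamb1 (58.9 ± 4.03), Nid1 (55.5 ± 3.84), Agrn (54.4 ± 1.70) and Col4a2 (47.5 ± 3.29). The median length was 0.606 kb for Lama5, 0.647 kb for Col4a1 and 0.924 kb for Lamc1, against longest transcripts of 11.388, 6.615 and 7.622 kb. The high places of these genes by the median length thus rest on short annotated transcripts. Which transcripts the cells made was not tested. Col4a2 was lowest by both lengths.

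The members shared a pattern within each group that the labels do not account for. WT 3 held the highest wild-type value for 9 of the 10 members, and WT 1 the lowest for 8. Among the mutant libraries, KK/RR 4 held the highest value for 9 members and KK/RR 6 the lowest for 9. By the root mean square difference of centred log2 CPM over the 6 libraries, Col4a1 and Col4a2 were each other's nearest member (0.03), as were Lama5 and Nid1 (0.04) and Lamb1 and Sparc (0.06). Hspg2 was farthest from any other, with Lama1 nearest at 0.11. The root mean square difference spans both groups, so it holds the difference between them as well as the pattern within each. Among 10208 other genes, those nearest to Col4a1 were Kdelr3, a retrieval receptor for endoplasmic reticulum proteins (0.02), Nynrin (0.04), Coro2b, a coronin that binds actin (0.04), Man1c1, a Golgi mannosidase (0.04), and Atp10d, a lipid-flipping ATPase (0.04).

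**Figure D2:**
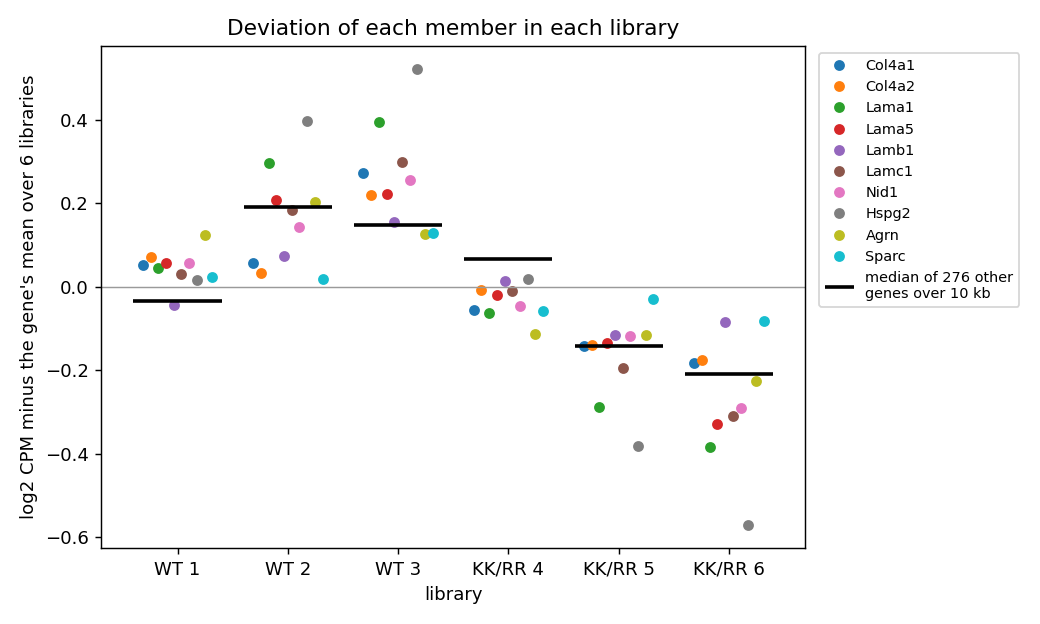
Log2 CPM of each member minus its own mean over the 6 libraries (colored points, WT for wild-type KBP and KK/RR for KBP(KK/RR), with replicate numbers), and the median of 276 other genes with transcripts over 10 kb (black bars). The long genes are low in WT 1 (-0.03) and high in KK/RR 4 (0.07) relative to the other libraries of their groups, as is Hspg2.

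Genes with long transcripts followed this pattern in part, though their level was highest in WT 2 and not in WT 3. Of the 10 members 8 have transcripts over 6 kb, up to 14.187 kb for Hspg2, and all 10 have a GC content above the median of the tested genes (50.07%). Among other genes that averaged a log2 CPM of 2 or more, those over 10 kb (276 genes) had median deviations of -0.03, 0.19 and 0.15 in WT 1, 2 and 3 and of 0.07, -0.14 and -0.21 in KK/RR 4, 5 and 6. Those under 2 kb (1994 genes) stayed between -0.02 and 0.05. The median log2 fold change was -0.19 for the genes over 10 kb, with a lower quartile of -0.33, and -0.07 for those of 6 to 10 kb, with a lower quartile of -0.14. Of the members over 10 kb, Hspg2 (-0.62) lay below that quartile and Lama5 (-0.32) did not. The 6 members of 6 to 10 kb, Col4a1, Col4a2, Lama1, Lamc1, Nid1 and Agrn, all lay below theirs. Of 263 tested genes that are over 6 kb and above the upper quartile of GC content, 20.5% were called lower, and 5 members are among these genes (Col4a1, Col4a2, Lama5, Hspg2 and Agrn).

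**Figure D3:**
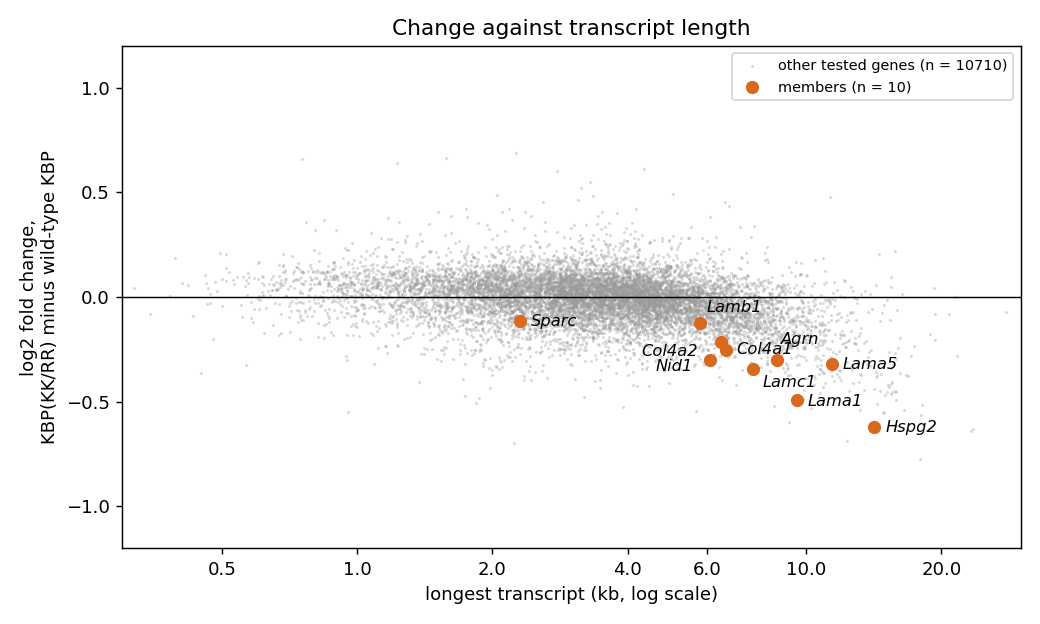
Log2 fold change of each tested gene that averaged a log2 CPM of 2 or more (gray, 10710 genes) and of the members (orange) against the length of the longest transcript in kb, on a log axis; 14 points lie outside the axes. Genes over 10 kb have a median of -0.19, and Hspg2 is the lowest member at -0.62.

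After each library had been corrected for a smooth dependence on transcript length and GC content, all 10 members were still negative, at a median of -0.15, and 4 were called lower against a background of 2.85%. The members were chosen with earlier results of these data known, so this contrast, too, does not test the set. Of the 4 calls, 2 were shared with the first test. Agrn (-0.16, edgeR adjusted p = 0.00400) and Nid1 (-0.26, 0.00928) kept their calls. Sparc (-0.13, 0.0166) and Lama1 (-0.36, 0.0469) gained one. Col4a1 (-0.14, 0.0577) and Col4a2 (-0.08, 0.437) lost theirs. Hspg2 stood at -0.35 with an SE of 0.15 (0.338). The correction would also remove a true difference that followed length, and the part of length in the members' values was not tested further.

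**Figure D4:**
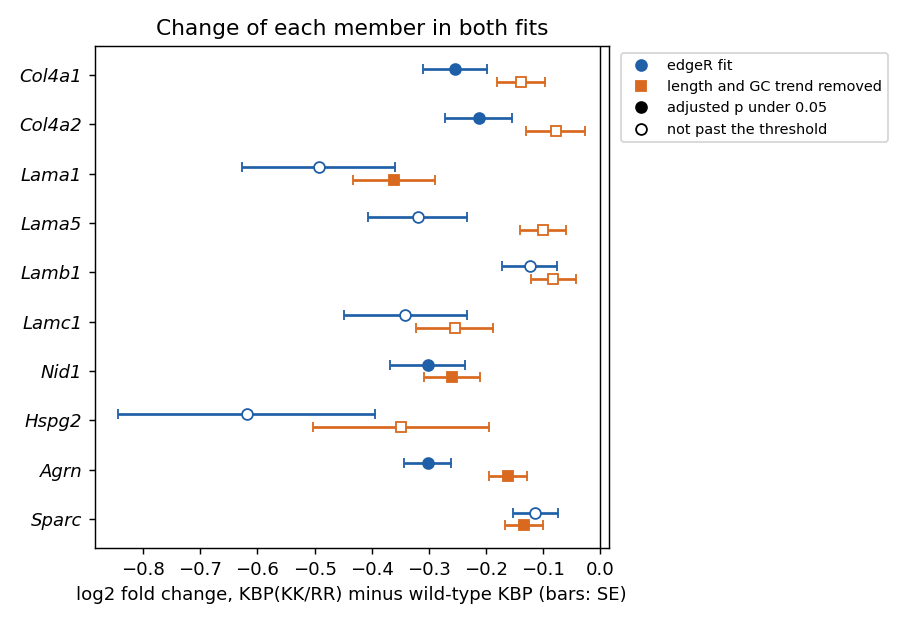
Log2 fold change of each member with its SE, in the edgeR fit (blue circles) and after the correction for length and GC content (orange squares); filled symbols have an adjusted p under 0.05. All values are below 0, and the correction brings Hspg2 from -0.62 to -0.35 and Lama5 from -0.32 to -0.10.

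Cells of other types could also carry these transcripts, and in bulk RNA fewer cells of a type and less RNA per cell cannot be told apart. Of 17 markers of primitive and parietal endoderm, none was at 0 in every library. Their summed level was 178 to 223 CPM in the WT and 161 to 199 CPM in the KK/RR libraries, mostly from Lrp2 and Tfpi. Without that pair the sum was 26.6, 31.6 and 34.1 CPM against 27.0, 25.2 and 23.0 CPM, again lowest in WT 1 among the wild-type and highest in KK/RR 4 among the mutant libraries. The defining transcription factor gene Gata4 measured 4.46 to 4.92 CPM against 3.63 to 4.67 CPM. Gata6 measured 1.08 to 1.59 against 1.009 to 1.44 CPM, and Sox17 0.383 to 0.709 against 0.408 to 0.672 CPM. Of 15 tested markers 1 fell, the receptor gene Pdgfra (log2 fold change -0.68, edgeR adjusted p = 0.0342), and 12 were negative. Over all tested genes, 2.07% were called lower and 50.8% were negative. The markers went both ways, with log2 fold changes from -1.065 to 1.009 and a median of -0.19. They were chosen with earlier results of these data known, so the contrast with all genes does not test them. DESeq2 called 0 of them. The part of such cells in the members' values was not tested.

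Fibroblast or feeder markers summed to 309 to 336 CPM against 313 to 328 CPM, with Col1a1 at 8.32 to 10.004 against 7.63 to 8.68 CPM, and 1 of 8 tested rose (Tagln). Endothelial markers summed to 23.1 to 27.5 against 22.7 to 25.5 CPM, with 1 of 5 lower (Esam) and Emcn at 0 in all 6 libraries. Trophectoderm and epithelial markers summed to 58.2 to 66.8 against 57.2 to 65.0 CPM, with 0 of 7 called by edgeR or DESeq2 and 0 at an unadjusted p under 0.05. Of 10 ES cell markers 1 rose (Fbxo15) and 1 fell (Tfcp2l1). An unadjusted p under 0.05 was reached by 6 of them, against 18.6% of all tested genes. The groups did not overlap for 7, against 22.4%. Of the 10, 4 were negative, and their sum was 5659 to 5739 CPM in the WT and 5598 to 5797 CPM in the KK/RR libraries. DESeq2 called 0 feeder markers and 0 ES cell markers higher.

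Other genes of basement membranes went both ways. Of 28 tested components beside the members, 4 fell and 1 rose, 18 were negative, and the median log2 fold change was -0.13. The netrin gene Ntn1 fell from 68.0 ± 2.56 to 57.4 ± 1.597 CPM (log2 fold change -0.24, SE 0.05, edgeR adjusted p = 0.00572). The secreted adhesion protein gene Tgfbi fell by 0.32 and the beta chain gene Lamb2 by 0.22. Smoc1, a calcium-binding matrix protein of the Sparc family, rose from 8.78 ± 0.457 to 10.998 ± 0.900 CPM (0.32). The most abundant per kb of the longest transcript, Col18a1 (-0.12, edgeR adjusted p = 0.142) and Nid2 (-0.14, 0.0620), were not called. Ntn1 was called in all 16 alternatives, Tgfbi in 15, Lamb2 in 12 and Smoc1 in 11.

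Receptors of matrix proteins, not only those of basement membranes, gave 4 lower calls and 0 higher by edgeR among 22 tested. Of the 22, 14 were negative and 10 had an unadjusted p under 0.05, with a median log2 fold change of -0.04. The laminin-binding integrin chain genes Itga3 (199.99 ± 10.2 to 163 ± 0.724 CPM, log2 fold change -0.30) and Itga6 (199 ± 5.46 to 169 ± 7.87 CPM, -0.23) fell, as did the fibronectin receptor chain gene Itga5 (149.7 ± 6.49 to 121 ± 4.99 CPM, -0.30). Bcam, the gene of a receptor for Lama5-containing laminins, fell from 347 ± 20.6 to 302 ± 14.3 CPM (-0.20). The edgeR adjusted p was 2.81e-04 for Itga3, 0.00291 for Itga6, 3.92e-04 for Itga5 and 0.0167 for Bcam, and the integrin calls held in all 16 alternatives. The partner chain gene Itgb1 stood at -0.08 (0.266). No receptor was called higher by DESeq2 (0), but the syndecan gene Sdc4 (0.21, edgeR adjusted p = 0.0512) was called higher in 6 of 16 alternatives. These were upper-quartile scaling (0.0363), library totals (0.0477), no filter on low counts (0.0112), the correction for length and GC content (0.0341), and the tests without WT 3 (0.0441) or KK/RR 4 (0.0107).

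**Figure D5:**
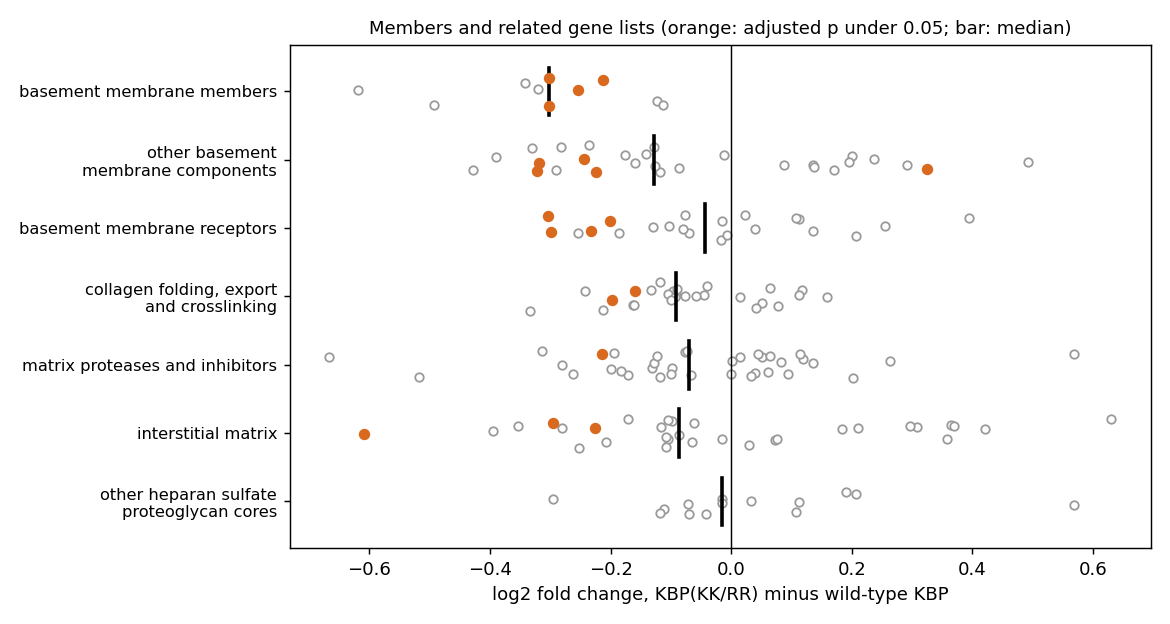
Log2 fold change of the tested genes of each list (points; orange, adjusted p under 0.05; vertical bars, medians). All 10 members are below 0, while each of the 6 related lists has genes on both sides.

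Genes that fold, modify, export or crosslink collagen gave 2 lower calls among 27 tested (median -0.09, 7 with an unadjusted p under 0.05). They were Crtap, part of the prolyl hydroxylation complex of the endoplasmic reticulum (-0.20, edgeR adjusted p = 0.0284), and Glt25d1, a collagen galactosyltransferase gene (-0.16, 0.0472). P4hb, a subunit of a prolyl hydroxylase and the most abundant of them per kb of the longest transcript, stood at -0.04 (0.637). Glt25d1 held its call in 4 of 16 alternatives and Crtap in 12. Of 36 tested matrix proteases and inhibitors Mmp14, a membrane-bound protease that cleaves matrix proteins, was the 1 called (-0.21, 0.0241; called in 12 of 16 alternatives), with Ctsd at 0.00 and Timp1 at -0.18 (0.0711).

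Matrix genes outside the basement membrane gave 3 lower calls among 31 tested, with a median of -0.09. Spp1, the gene for osteopontin, stood at -0.30, the TGF-beta binding protein gene Ltbp4 at -0.23 and the microfibril gene Fbn2 at -0.61, all called. Spp1 and Ltbp4 were called in all 16 alternatives and Fbn2 in 11. The call of Fbn2 was lost in DESeq2 (adjusted p = 0.0531) and, by edgeR, without WT 2 (0.155) or 3 (0.0888) or KK/RR 5 (0.121) or 6 (0.139). The fibronectin gene Fn1, at 837 ± 118 and 655 ± 99.9 CPM, had a log2 fold change of -0.35 and was not called (SE 0.17, edgeR adjusted p = 0.379). Of 14 other heparan sulfate proteoglycan core genes edgeR called 0, with 3 at an unadjusted p under 0.05 and 0 called by DESeq2, and Gpc4 stood at -0.02. Sdc4 is also in this list, which thus held 1 higher call in the same 6 alternatives. The 6 related lists share genes in part, and their counts stand beside the 3.12% of all tested genes that were called. The lists were chosen with earlier results of these data known, so that contrast does not test them.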

How the data were processed

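The 6 RNA-seq libraries were prepared from total RNA with RiboZero removal of ribosomal RNA and the ScriptSeq v2 kit, per the labels' protocols. Tools named are bcl2fastq, TopHat, HTSeq and DESeq2, and the builds mm10 and GRCm38, per the submitters' processing notes. For their versions, annotation, strand setting and filters: not given in the sources used here. Raw read counts per gene symbol and a normalized signal were deposited by the authors. The values of the signal equal each count divided by 1 factor per library. With that factor removed, 100% of the values above 0 came out whole within 0.01, and 0 reads differed from the raw counts. The edgeR test on these recovered reads therefore called the same 448 genes.

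The deposited counts were tested with edgeR 4.0.16 under R 4.3.3 (filterByExpr, TMM scaling, a robust quasi-likelihood fit, Benjamini-Hochberg over 14340 genes, called at an adjusted p under 0.05). The standard error is the absolute log2 fold change over the square root of F. CPM were taken over TMM-scaled totals, with ± for the SD. With totals of 24131743 to 32160411 counts, depth limits mostly genes of low counts, and no member is one. Lengths and GC content are those of the longest GENCODE M21 transcript, with a value for 23045 of 23420 symbols. The trend was fitted per library with natural splines (5 degrees of freedom each for log2 length and GC content) and entered as offsets. The test and the trend removal were tested on simulated data. Alternatives were DESeq2 1.42.0, limma 3.58.1 (voom, and log2 of the normalized signal plus 1 or 8), other scalings, filters and thresholds, and each library left out in turn. The test on recovered reads was added after seeing the data.

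The members and lists were chosen with earlier results of these data known. Genes named are the members; up to 6 called genes by smallest p and the 2 with the highest CPM per kb of each related list; the 5 genes nearest to Col4a1 (mean log2 CPM of at least 2, clone and structural RNA names passed over); called markers, up to 3 per cell type; and Pou5f1, Nanog, Gata4, Gata6, Sox17, Col1a1 and the KBP gene. Lrp2, Tfpi, Emcn and Sdc4 were named after their values were seen. The values of 1 called gene of the other components, which is in that list's counts, are not reported here.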

Additional observations from a re-analysis of the deposited data

How the results depend on the processing

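All 10 members kept a negative log2 fold change in all 16 alternatives planned. The recovered reads equal the raw counts, so the test on them had to return the same 4 calls and adds no support. The number of members called lower, 4, was 2 with a filter of 1 CPM in 3 libraries, 6 with no filter on low counts and 1 at an adjusted p threshold of 0.01, and ran from 1 to 6 when single libraries were left out. The calls over all genes, 151 higher and 297 lower, were 81 higher in DESeq2, 235 higher and 205 lower with upper-quartile scaling, 284 and 682 with no filter, 281 higher with the length and GC trend removed, 42 and 88 at a threshold of 0.01 and 309 and 514 at 0.1. They ran from 37 to 198 higher and from 85 to 569 lower when single libraries were left out. Nid1 was not called with the filter of 1 CPM (edgeR adjusted p = 0.0519). Lamc1 was called with no filter (0.0376) and without KK/RR 4 (0.0269). Lama5 was called with no filter (2.76e-10) and without WT 1 (0.0292) or KK/RR 4 (0.00716) or 6 (0.0407). Lama1 was called without WT 1 (0.0184). Hspg2 and Lamb1 were called in 0 of 16. The cause of these changes was not tested. Among the related lists, lower calls ran from 0 to 4 for collagen folding, 0 to 3 for proteases, 2 to 5 for other components, 3 to 5 for receptors and 2 to 4 for interstitial matrix. Higher calls ran from 0 to 1 for receptors, heparan sulfate proteoglycan cores, proteases and other components, and were 0 for collagen folding and interstitial matrix. The levels per kb and their ratios depend on the transcript length taken, as given with them above. No paired analysis was possible because the labels number the groups 1 to 3 and 4 to 6 and share no number.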
